A study of Mus musculus with 120 samples.

Results

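Hearts of mice with a mitochondrial DNA (mtDNA) mutation in a subunit of complex I, called ND6, were compared with hearts of mice with an mtDNA mutation in a subunit of complex IV, called CO1. The comparison holds 24 of the 120 samples of the series: all 12 ND6 hearts and all 12 CO1 hearts, chosen by strain and tissue from the labels, with the non-exercised and exercised arms weighted equally (6 mice per strain and arm). ND6 mice carry the missense mutation P25L of mt-Nd6 at mtDNA position 13997, and CO1 mice carry V421A of mt-Co1 at position 6589. Both strains share the nuclear background C57BL/6Eij (Nnt+/+), and no group of the comparison is free of an mtDNA mutation. The control strain was not analysed here. Exercised mice started at 16 weeks of age and ran for 8 weeks, every other day, in sessions of 45 min at 50% of the capacity each could reach. Non-exercised mice of the same age were handled without training. Tissue was taken 6 days after the last session, when hearts were dissected and flash frozen, and the labels do not say which parts of the heart were kept. RNA enriched with oligo(dT) was sequenced on paired-end libraries, a library per mouse, so p-values measure the spread between mice. The series asks how mitochondrial mutations alter the response to endurance training.

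Complex I takes electrons from NADH into the respiratory chain, and complex IV passes them to oxygen. mt-Nd6 and mt-Co1 are core subunits that mtDNA encodes, so both mutations pass through the mother. Heart tissue is a mixture of ventricular and atrial muscle cells, pacemaker and conduction cells, fibroblasts, vessel cells, nerves, the covering epicardium, fat and blood. Myl7 and Myl4 encode the myosin light chains of atrial muscle, Bmp10 encodes a growth factor that the adult heart makes mainly in the right atrium, and Myl2 encodes the light chain of ventricular muscle. In bulk RNA, fewer cells of a type and less RNA per cell cannot be told apart.

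The mutated codons that define the strains are shown first, in capitals within their reference sequence (GRCm38, the mm10 build, from the gene annotation's transcripts, written along the coding strand). The first window lies at chrM:13984-14010 on the minus strand within the coding exon of mt-Nd6, where codon 25 reads CCT (proline) in the reference and CTT (leucine) in ND6 mice. The second lies at chrM:6576-6602 on the plus strand within the coding exon of mt-Co1, where codon 421 reads GTA (valine) in the reference and GCA (alanine) in CO1 mice.
mt-Nd6, codon 25: ttaaagccttcaCCTatttatggaggt
mt-Co1, codon 421: atattcgtaggaGTAaacataacattc
The deposited tables give counts per gene and no bases, so the mutations themselves could not be checked in these libraries. Levels of the mutated genes did not separate the strains. mt-Nd6 stood at 10.53, 11.38 and 12.20 log2 CPM (lowest, median and highest of 12) in ND6 hearts and at 11.02, 11.54 and 11.92 in CO1 hearts, a log2 difference, ND6 minus CO1, of -0.11 ± 0.21 (SE, adjusted p = 0.727 by edgeR's quasi-likelihood test with Benjamini-Hochberg adjustment, as for every adjusted p of a gene below). mt-Co1 stood at 15.63, 16.34 and 17.07 log2 CPM in ND6 hearts and at 16.28, 16.85 and 16.97 in CO1 hearts (log2 difference -0.35 ± 0.23, adjusted p = 0.263). Both ranges overlapped. Nnt, the transhydrogenase of the inner mitochondrial membrane, was expressed in all 24 hearts, at 6.85, 8.33 and 9.32 log2 CPM in ND6 and 8.78, 9.19 and 9.38 in CO1 (log2 difference -0.77 ± 0.32, adjusted p = 0.0821).

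Library totals lay between 19.7 and 26.5 M counts (M stands for mega) over all 48 hearts in the fit. They averaged 22.4 M ± 1.78 (SD, n = 12) in ND6 and 23.3 M ± 2.11 in CO1, a difference of -0.805 M (exact two-sided permutation p = 0.242 within arms). The strains differed in the level of atrial muscle genes. An atrial score was formed as the mean log2 CPM of Myl7, Myl4 and Bmp10. It stood at 1.44, 9.67 and 11.8 (lowest, median and highest) in the 12 ND6 hearts and at -0.31, 0.70 and 9.95 in the 12 CO1 hearts. The difference in means was 5.95 (7.79 ± 3.74 against 1.83 ± 3.07, SD, n = 12 each), with an exact two-sided permutation p of 0.0005013 (adjusted p = 0.0015 over 3 tests). The strains and the score's genes were chosen with earlier results of these data known, so this p-value is a description and not independent evidence. The median score was 10.4 in exercised and 5.02 in non-exercised ND6 hearts, against 0.83 and 0.66 in exercised and non-exercised CO1 hearts. The 24 hearts of the other strains in the fit spanned the same range, with medians of 5.08 in ANT1 and 7.99 in ND5 mice. ANT1 mice lack Slc25a4, and ND5 mice carry another complex I mutation.

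Several libraries stood apart from their groups. Mouse E50 (CO1, exercised) had a score of 9.95 and mouse E42 (CO1, non-exercised) a score of 6.24, while the other 10 CO1 hearts stayed at or below 1.42. Myl7 reached 32 CPM in 10 of 12 ND6 hearts (6 of 6 exercised and 4 of 6 non-exercised) and in 1 of 12 CO1 hearts, E50. E42 lay just below that limit, at 31.7 CPM. The ND6 hearts below 32 CPM were the non-exercised mice I62 (1.34 log2 CPM) and I95 (1.79 log2 CPM). Mouse I53 (ND6, non-exercised) had low levels of 3 ventricular genes: Myl2 stood at 3.53 log2 CPM (309 counts), where the other 23 hearts lay between 9.78 and 12.46, and the ventricular factor Irx4 had 0 counts. Its Myl3, a ventricular light chain, stood at 4.67 log2 CPM against at least 9.47 in the others, and its Bmp10, at 12.2 log2 CPM, was the highest of the 24. Tnni3 (10.9 log2 CPM) and Myh6 (14.3 log2 CPM), which all heart muscle expresses, lay within the range of the other hearts. The labels do not say how hearts were trimmed, so strain and dissection cannot be told apart.

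**Figure D1:**
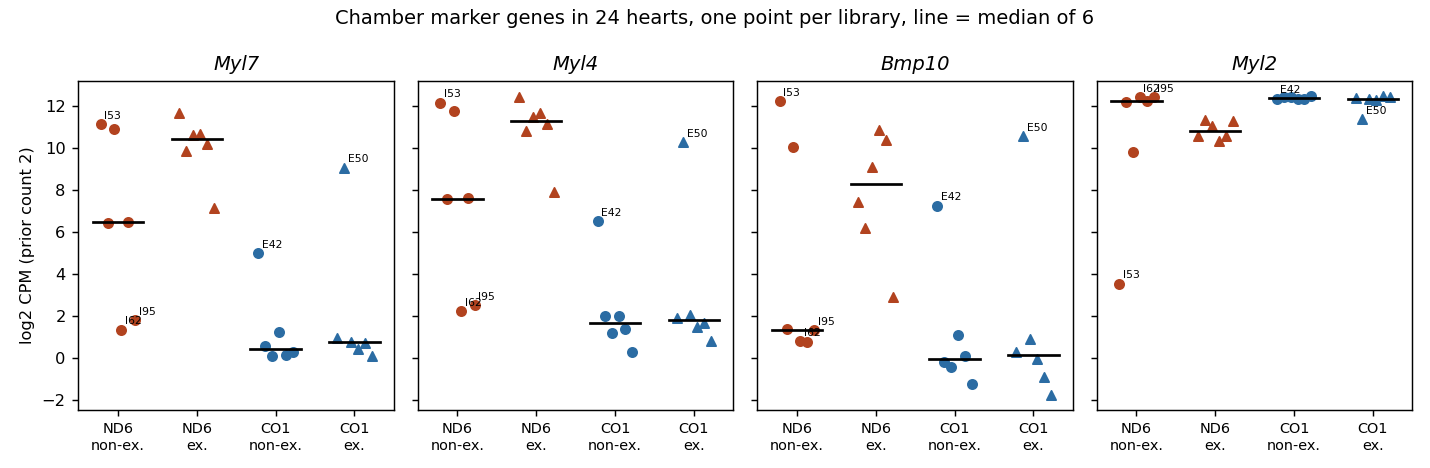
Log2 CPM (prior count 2) of the atrial genes Myl7, Myl4 and Bmp10 and the ventricular gene Myl2, a point per heart library in the 4 groups of 6, with the line at the group median and the mice named in the text labelled. For Myl7, exercised ND6 hearts all lie above 7 and CO1 hearts other than E42 and E50 at or below 1.23, and I53 is the single heart that nearly lacks Myl2.

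Atrial muscle genes were among the largest differences between the strains. Myl7 (chr11:5896637-5898782, minus strand) stood at 1.34, 10.03 and 11.66 log2 CPM in ND6 hearts and at 0.07, 0.63 and 9.05 in CO1 hearts. All but I62 and I95 of the ND6 hearts lay above every CO1 heart except E50, and 7 of 12 lay above E50 as well. The log2 difference was 5.40 ± 1.45 (SE), or 42.4-fold, with an adjusted p of 0.0141. The fit averages counts and not log values within a group, so E50 lowers this difference: without E50 it was 8.35. Myl4 stood at 2.21, 10.97 and 12.40 log2 CPM in ND6 and 0.26, 1.78 and 10.27 in CO1 (log2 difference 4.99 ± 1.45, adjusted p = 0.0194, and 8.02 without E50). Bmp10 (chr6:87428994-87437677, plus strand), which stood at 0.74, 6.81 and 12.21 log2 CPM in ND6 and -1.76, 0.01 and 10.54 in CO1, did not pass (log2 difference 3.31 ± 1.60, adjusted p = 0.124). Without E50 its difference was 7.36, with an adjusted p of 0.00667. These 3 genes form the covariate used below.

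Most other atrial markers rose as well. A list of 17 atrial markers was used, which also holds Myl7, Myl4 and Bmp10. Of its 16 tested members 14 rose, Myl7 and Myl4 among them, and 1 fell. The median log2 difference was 3.18, against a median of 0.04 over all 15723 genes tested. Over all genes 13% rose and 4.02% fell. Summed over the list, levels ranged from 965.2 to 47959 CPM in ND6 hearts (median 16443) and from 1034 to 14196 CPM in CO1 hearts (median 1261). Sln, the sarcolipin gene that restrains the calcium pump of atrial muscle, stood at 0.17, 8.84 and 10.36 log2 CPM in ND6 and -3.54, -0.87 and 8.38 in CO1 (log2 difference 4.81 ± 1.47, adjusted p = 0.024, and 8.08 without E50). Nppa, the atrial natriuretic peptide, stood at 4.26, 12.60 and 14.45 log2 CPM in ND6 and 5.85, 7.02 and 12.57 in CO1 (log2 difference 3.89 ± 1.17, adjusted p = 0.0231). Leaving out I53 ended both calls (adjusted p = 0.0535 for Sln and 0.0778 for Nppa). Pam, the enzyme that amidates peptides in atrial granules, rose by 2.18 ± 0.54 on the log2 scale (adjusted p = 0.011), Stard10 by 3.05 ± 0.77 (adjusted p = 0.0114), the growth factor homologue Fgf12 by 5.17 ± 1.30 (adjusted p = 0.0114) and the calcium channel gene Cacna1d by 2.36 ± 0.59 (adjusted p = 0.0114). The member that fell was Kcna5, a potassium channel gene listed for its role in human atria (log2 difference -0.71 ± 0.25, adjusted p = 0.0483). Its call was lost when any of 17 single libraries was left out.

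The levels of the score's members differed from heart to heart. Bmp10 was above 6 log2 CPM in 7 of 12 ND6 and 2 of 12 CO1 hearts. In I56, I76 and I63, Myl7 at 6.40, 6.47 and 7.13 log2 CPM came with Bmp10 at 1.36, 0.74 and 2.90. Bmp10 was thus low in 3 hearts where Myl7 was well above the level of most CO1 hearts.

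Ventricular muscle genes were lower in most ND6 hearts without passing the test. Of 14 ventricular markers 0 were called, 12 had a negative difference, and the median log2 difference was -0.47. Myl2 stood at 3.53, 11.16 and 12.40 log2 CPM in ND6 and 11.36, 12.35 and 12.46 in CO1, and 8 of 12 ND6 hearts lay below every CO1 heart (log2 difference -0.96 ± 0.59, adjusted p = 0.22). The summed level of the list was 43054 CPM in the median ND6 heart and 55478 CPM in the median CO1 heart. Adding the atrial covariate, 13 of the 14 differences were positive and their median was 0.10.

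Promoters of Myl7 and Bmp10, members of the score that differed in level from heart to heart, are shown with the motif matches found in them. Each runs from 250 bases before to 50 after the gene's start (RefSeq, GRCm38.p6), at chr11:5898733-5899032 on the minus strand and chr6:87428744-87429043 on the plus strand. Capitals mark a CArG box, the motif of the muscle factor SRF, in Myl7, and 2 matches to the GATA motif AGATAA in Bmp10.
Myl7: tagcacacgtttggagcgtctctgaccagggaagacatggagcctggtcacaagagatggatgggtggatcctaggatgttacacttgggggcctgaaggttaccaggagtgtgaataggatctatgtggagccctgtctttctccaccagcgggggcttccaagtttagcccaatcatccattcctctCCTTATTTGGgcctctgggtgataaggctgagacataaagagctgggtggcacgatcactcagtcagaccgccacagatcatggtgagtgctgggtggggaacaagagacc
Bmp10: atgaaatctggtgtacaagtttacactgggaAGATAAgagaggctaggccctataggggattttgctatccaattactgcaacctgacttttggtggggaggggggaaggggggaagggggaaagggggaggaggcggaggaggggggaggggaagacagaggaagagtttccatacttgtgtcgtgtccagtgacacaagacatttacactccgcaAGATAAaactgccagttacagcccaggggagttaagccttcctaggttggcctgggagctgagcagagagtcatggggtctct
Matches were searched on both strands, without overlap between these motifs. Of 32851 promoters of this length, 1.63% hold a CArG box, 11.2% the GATA letters and 13.7% the T-box letters AGGTGT. Among the 13 of 17 atrial markers with a promoter entry, 1 held a CArG box, 2 the GATA letters and 3 the T-box letters. These counts are per gene, over all its promoters, and Fgf12, Cacna1d and Pam have several. The percentages are per promoter, so the 2 are not directly comparable. A match describes letters and not binding.

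Over both arms, 2681 of 15723 genes (17.1%) were called at an adjusted p under 0.05, 2049 higher and 632 lower in ND6 hearts (5943 genes at an unadjusted p under 0.05). No gene separated all 12 ND6 from all 12 CO1 hearts (0% of genes). With the atrial score as a covariate 1 gene was called (0.00636%), and 1201 had an unadjusted p under 0.05. The count without the covariate moved with single libraries: it was 1159 without I53, 1376 without I58 (the non-exercised ND6 heart with the second highest score) and 3786 without E50. Without E42 and E50 together it was 3575. A gene that loses its call with the covariate is not shown to be equal in the strains, since strain and score overlap little.

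The direction of the differences followed the score in hearts that took no part in the contrast. In the 24 ANT1 and ND5 hearts, edgeR fitted each gene's slope on the score to counts, within strain and arm. Slopes are in log2 per unit of score. Of the 2049 genes higher in ND6, 2027 (98.9%) had a positive slope there, against 56.1% of all genes. Of the 632 lower genes, 594 (94.0%) had a negative slope, against 43.9% of all genes. Across genes, which share libraries and are not independent, the correlation of log2 difference and slope, given as a description, was 0.877 (Pearson) and 0.853 (Spearman), and 0.164 (Pearson) with the covariate in the fit.

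**Figure D2:**
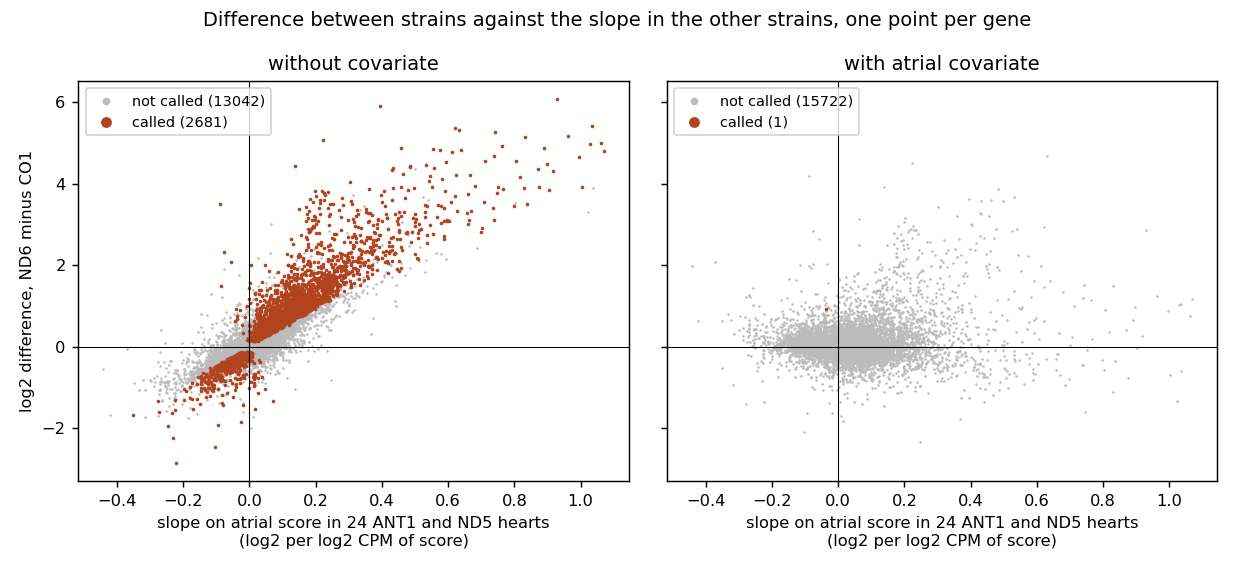
Log2 difference, ND6 minus CO1, of each of 15723 genes against its slope on the atrial score in the 24 ANT1 and ND5 hearts, without (left) and with (right) the atrial covariate. Called genes are coloured, 2681 on the left, where they lie along a rising diagonal, and 1 on the right.

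Genes of the sinus node and conduction system, the tissue that starts and carries the heartbeat, were examined next. Of 13 markers 7 rose and 0 fell (median log2 difference 2.37, and 0.41 with the covariate), where 13% of all genes rose and 4.02% fell. Shox2, a transcription factor of the sinus node, stood at -1.23, 1.56 and 4.62 log2 CPM in ND6 hearts and -1.58, -1.11 and -0.24 in CO1 hearts. In 7 of 12 ND6 hearts it lay above every CO1 heart (log2 difference 3.46 ± 0.76, adjusted p = 0.00689). Its level was highest in I58, and without that mouse the difference was 2.38. Gja5, the connexin of atria and fast conducting fibres, rose by 2.37 ± 0.57 (adjusted p = 0.0103). Vsnl1, a calcium sensor gene, rose by 4.83 ± 1.01 (adjusted p = 0.00643), from levels near 0 counts in most CO1 hearts. With the covariate the differences of these 3 genes were 0.71 (Shox2), 0.17 (Gja5) and 2.24 (Vsnl1), with adjusted p from 0.515 to 0.985. Among 30 genes of ion channels and calcium handling, where 8 rose and 1 fell, the median was 0.01.

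Many connective tissue genes rose in ND6 hearts. Of 12 fibroblast markers 10 rose, and of 29 extracellular matrix genes 16 rose, with 0 lower in either (medians 0.82 and 0.80). The shares over all genes tested were 13% higher and 4.02% lower. Lum, which encodes the collagen-binding proteoglycan lumican, stood at 5.33, 6.45 and 7.11 log2 CPM in ND6 and 4.92, 5.36 and 6.10 in CO1. In 10 of 12 ND6 hearts it exceeded every CO1 heart (log2 difference 0.99 ± 0.18, adjusted p = 0.00349). Dcn, the related decorin, stood at 8.21, 9.26 and 9.78 against 8.05, 8.32 and 9.11 log2 CPM (log2 difference 0.80 ± 0.19, adjusted p = 0.00923). Dermatopontin (Dpt) rose by 1.14 ± 0.24 (adjusted p = 0.00643), the calcification inhibitor Mgp by 1.46 ± 0.32 (adjusted p = 0.00698), the protease inhibitor Timp1 by 1.78 ± 0.40 (adjusted p = 0.00795) and Ctgf, a matrix-inducing factor, by 2.03 ± 0.50 (adjusted p = 0.0107). With the covariate 0 members of either list were called, all 29 matrix genes had a positive difference and their median was 0.39. The difference of Lum was then 0.50 ± 0.16 (adjusted p = 0.367). The fibroblast median was 0.18.

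Epicardial, endocardial and neural markers shifted in the same direction. For comparison, 13% of all genes rose and 4.02% fell. Of 13 markers of the epicardium and mesothelium 7 rose (median 1.15, and 0.09 with the covariate), among them the keratin gene Krt18 (1.49 ± 0.43, adjusted p = 0.0194), Upk1b (1.42 ± 0.42, adjusted p = 0.0215) and Dmkn (2.65 ± 0.79, adjusted p = 0.0222). Each of these 3 calls was lost without I53 (adjusted p = 0.0622, 0.0797 and 0.0869). Of 10 markers of endocardium and lymphatic vessels 4 rose, Npr3, Cytl1, Plvap and Pdpn (median 0.78). Of 11 tested markers of cardiac neurons and glia 5 rose (median 0.85, and 0.32 with the covariate), among them Sox10, a transcription factor of glia (0.71 ± 0.21, adjusted p = 0.0228). Sox10 lost its call when either of 2 single libraries was left out (highest adjusted p 0.0554, without I58). The neuronal markers Th, Chrna3, Snap25 and Nefl were too low to be tested.

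Lgi4, which encodes a protein that glial cells secrete for myelin formation, had among the smallest p-values of the comparison. It stood at 1.21, 2.51 and 3.45 log2 CPM in ND6 and 1.22, 1.52 and 1.83 in CO1. In 11 of 12 ND6 hearts it exceeded every CO1 heart, though I53 (1.85 log2 CPM) and I76 (1.88 log2 CPM) did so narrowly. The remaining ND6 heart, I95, lay just below the lowest CO1 heart. The log2 difference was 1.01 ± 0.16 (adjusted p = 0.00283) without and 0.69 ± 0.17 (adjusted p = 0.187) with the covariate. Ptn, the growth factor pleiotrophin, rose by 1.72 ± 0.30 (adjusted p = 0.00302), the transcription factor Sox9 by 1.45 ± 0.27 (adjusted p = 0.00348) and the ephrin receptor Epha7 by 1.25 ± 0.24 (adjusted p = 0.00408).

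**Figure D3:**
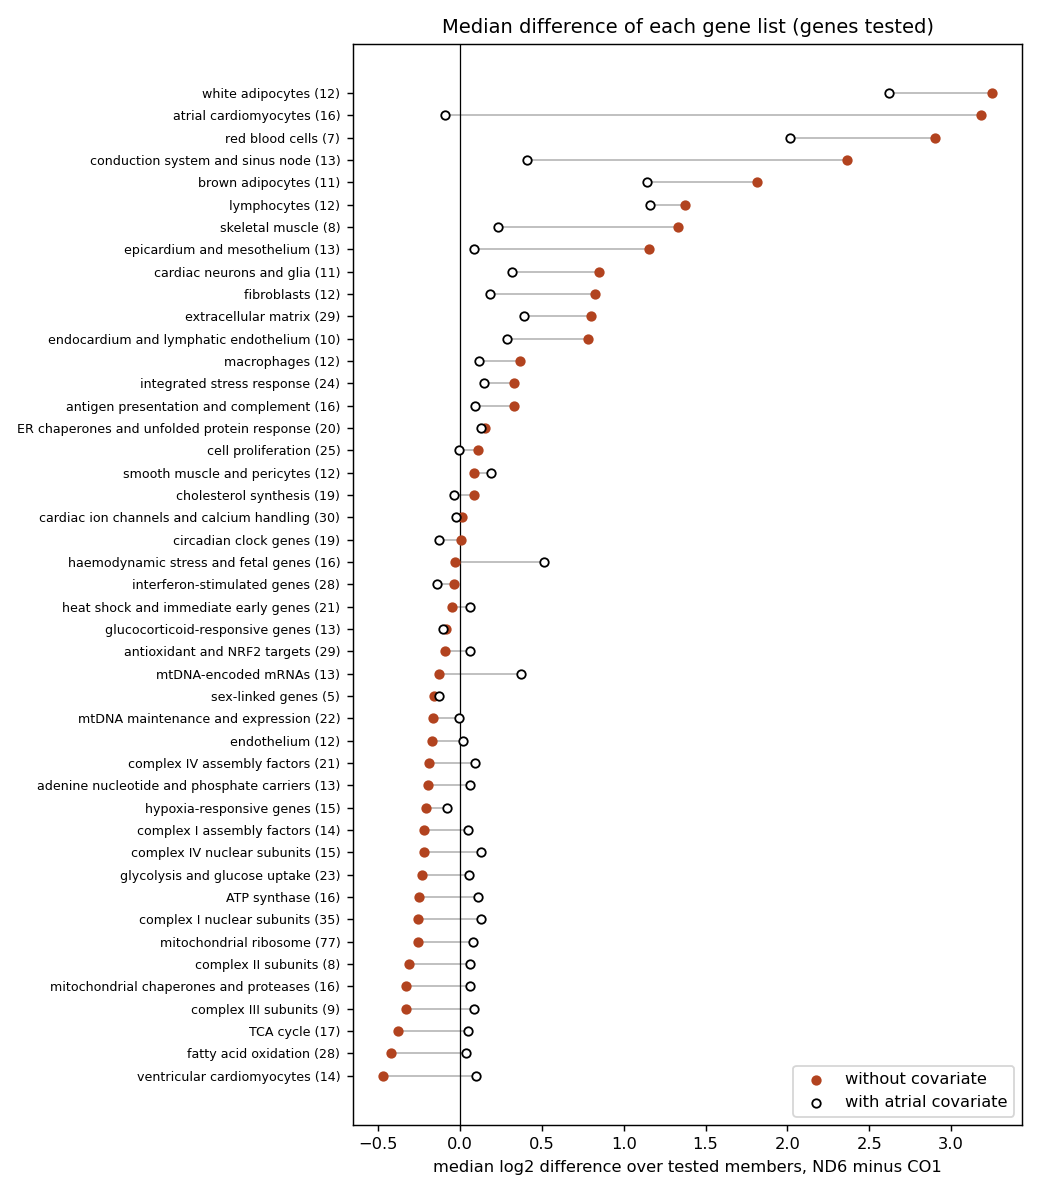
Median log2 difference, ND6 minus CO1, over the tested members of each of 45 gene lists with at least 5 tested genes (number tested in brackets), without (filled) and with (open) the atrial covariate. With the covariate 37 of the 45 medians lie nearer to 0 and 24 change sign, while the medians of fat, red blood cell and lymphocyte markers stay above 1.

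Several markers of fat and blood rose in ND6 hearts, by amounts that moved with single libraries. Of 12 white adipocyte markers 8 rose and 0 fell (median 3.25, and 2.62 with the covariate). Adipoq, the fat cell hormone adiponectin, stood at -1.62, 2.02 and 6.50 log2 CPM in ND6 and -3.54, -2.10 and 4.33 in CO1. In 11 of 12 ND6 hearts it lay above every CO1 heart but the highest, E50. The log2 difference was 3.89 ± 1.13 (adjusted p = 0.019) without and 3.26 ± 1.07 (adjusted p = 0.387) with the covariate, and 6.18 without E50. With the covariate and without I63 it was 1.91. Plin1, a lipid droplet protein gene, rose by 4.25 ± 1.24 (adjusted p = 0.0195, and 6.72 without E50) and Cfd, the adipocyte protease adipsin, by 3.54 ± 1.06 (adjusted p = 0.0224, and 5.93 without E50). Summed over the 12 markers, levels ranged from 545.9 to 2371 CPM in ND6 and from 634.7 to 1241 CPM in CO1. Of 11 brown adipocyte markers 2 rose, Ucp1 and Otop1, and 1 fell, the fatty acid receptor gene Ppara, where 13% of all genes rose and 4.02% fell. Ucp1, the uncoupling protein of brown fat, was above 2 log2 CPM in 6 ND6 hearts and in 1 CO1 heart, E50, and near or at 0 counts in most others (log2 difference 5.32 ± 1.74, adjusted p = 0.0324, and 8.68 without E50). That call was lost without any of 7 single libraries (highest adjusted p 0.0758, without I63). With the covariate the Ucp1 difference was 4.68, and 2.46 without I63. The median of the brown adipocyte list was 1.82, and 1.14 with the covariate.

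All 7 tested red blood cell markers rose, with a median of 2.90, and of 2.02 with the covariate, where 0 were called. Hba-a1, an alpha globin gene, stood at 8.84, 10.54 and 14.79 log2 CPM in ND6 and 7.46, 9.14 and 11.36 in CO1, with overlapping ranges and 5 of 12 ND6 hearts above every CO1 heart (log2 difference 2.91 ± 0.71, adjusted p = 0.0105). Without I63 it was 1.92. With the covariate it was 2.07, and 0.39 without I63. The highest levels were in I58 and I63, and the summed markers reached 132000 CPM in an ND6 heart against at most 11571 CPM in CO1. Over all genes 13% rose, and the share of called lymphocyte markers was near this. Of 12 lymphocyte markers 2 rose (median 1.37, and 1.16 with the covariate): the T cell gene Cd3d by 1.91 ± 0.51 (adjusted p = 0.0136) and the antibody light chain gene Igkc by 2.68 ± 0.86 (adjusted p = 0.0297). The Igkc difference was 1.66 without I95, with an adjusted p of 0.117. Of 12 macrophage markers 3 rose, C1qa, Lyz2 and Ccr2 (median 0.37, and 0.11 with the covariate). The part of fat and blood in the other differences was not tested. With Adipoq and the globin gene Hbb-bs in place of the atrial score as covariates, 0 genes were called over both arms (1238 at an unadjusted p under 0.05). This pair of covariates was chosen after seeing the data. Both genes differed between the strains, so a call lost in that fit does not show equal levels.

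Skeletal muscle markers were checked because leg muscle was dissected in the same study. Of 8 tested markers 3 rose, Pvalb, Tnni2 and Myh8 (median 1.33, and 0.23 with the covariate), where 13% of all genes rose. Pvalb, the calcium buffer parvalbumin, was near 0 counts in most hearts of either strain (-3.54, -2.12 and 2.60 log2 CPM in ND6, and -3.54, -3.54 and -1.15 in CO1) and had a log2 difference of 5.36 ± 1.26 (adjusted p = 0.00906). The defining fast myosins Myh1, Myh2 and Myh4 were too low to be tested. Summed markers ranged from 432.1 to 1934 CPM in ND6 and from 947 to 2050 CPM in CO1. The markers of airway, thymus and thyroid were too low to be tested in 10 of 12 cases, and their sum stayed at or below 9.64 CPM.

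Among stress pathways, where 13% of all genes rose and 4.02% fell, the integrated stress response had 11 higher and 1 lower of 24 genes (median 0.33, and 0.15 with the covariate). It is a programme of amino acid and folate metabolism that mitochondrial defects can raise. Phgdh, the first enzyme of serine synthesis, stood at 0.21, 1.45 and 3.22 log2 CPM in ND6 and -0.52, -0.08 and 1.19 in CO1 (log2 difference 1.54 ± 0.38, adjusted p = 0.0108). In 8 of 12 ND6 hearts it exceeded every CO1 heart. Mthfd2, the mitochondrial folate enzyme, rose by 1.36 ± 0.30 (adjusted p = 0.00743), the transcription factor Atf5 by 0.47 ± 0.11 (adjusted p = 0.00961) and Cbs, an enzyme of cysteine synthesis, by 1.99 ± 0.49 (adjusted p = 0.0107). The lipoprotein receptor gene Vldlr fell (-0.56 ± 0.16, adjusted p = 0.0199). With the covariate 0 of 24 were called, and the slopes on the score in the other strains had a positive median (0.045 log2 per unit of score). The hormone Fgf21 was too low to be tested. Of 16 genes of antigen presentation and complement 8 rose (median 0.33, and 0.09 with the covariate), with C4b at 1.79 ± 0.37 (adjusted p = 0.00643).

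Most mitochondrial genes had a small negative difference that did not pass the test. In 13 lists of respiratory chain subunits, assembly factors, ribosome, maintenance, chaperones, tricarboxylic acid cycle and fatty acid oxidation, with 290 tested genes, 273 had a negative difference (44.6% of all genes did). Of these 290 genes 2 rose and 15 fell, where 13% of all genes rose and 4.02% fell, and their median was -0.27. With the covariate 254 of the 290 differences were positive (56.1% of all genes were), their median was 0.08 and 0 were called. The sign of this broad shift thus depended on whether the score was in the fit.

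Of 35 nuclear subunits of complex I, the complex of the mutated ND6 subunit, 0 were called and 0 had a positive difference (median -0.26). With the covariate 34 of 35 were positive, with a median of 0.13 and a smallest adjusted p of 0.701. Of 15 nuclear subunits of complex IV, the complex of the mutated CO1 subunit, 1 rose, Cox8a (median -0.22, and 0.13 with the covariate). Of 77 genes of the mitochondrial ribosome 7 fell and 1 rose (median -0.26), where 4.02% of all genes fell and 13% rose. Mrpl39 fell (-0.39 ± 0.11, adjusted p = 0.0209, and 0.0512 without I53), and Mrps6 rose (0.85 ± 0.25, adjusted p = 0.0194, and 0.0598 without I53). Idh2, the mitochondrial isocitrate dehydrogenase, stood at 8.85, 9.70 and 10.73 log2 CPM in ND6 and 9.90, 10.67 and 10.91 in CO1, with 8 of 12 ND6 hearts below every CO1 heart (log2 difference -0.73 ± 0.26, adjusted p = 0.0476). Echs1, an enzyme of fatty acid oxidation, fell in the same way (-0.41 ± 0.14, adjusted p = 0.0439). These calls were lost when any of 19 (Idh2) and 16 (Echs1) single libraries was left out. With the covariate the differences of Idh2 and Echs1 were -0.05 and 0.01. Slc25a4, the adenine nucleotide translocator of heart muscle, stood at 10.91, 11.43 and 11.86 log2 CPM in ND6 and 11.47, 11.82 and 11.93 in CO1 (log2 difference -0.35 ± 0.19, adjusted p = 0.166).

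The 13 mRNAs that mtDNA encodes had 0 calls in either fit. All 13 differences were negative without the covariate (median -0.13) and all 13 positive with it (median 0.37, smallest adjusted p 0.407). For mt-Nd6 the difference was then 0.43 ± 0.17 (adjusted p = 0.512) and for mt-Co1 0.22 ± 0.18 (adjusted p = 0.858). mtDNA-encoded genes took 17.5%, 24.3% and 32.1% of counts (lowest, median and highest) in ND6 hearts and 23.2%, 27.9% and 29.1% in CO1 hearts. The means were 25.0% ± 4.94 and 27.6% ± 1.57 (SD, n = 12), a difference of -2.55 percentage points (exact two-sided permutation p = 0.108, adjusted p = 0.163 over 3 tests). I53 and I58, with the highest scores among non-exercised ND6 hearts, had the lowest shares, and I62 and I95, with the lowest ND6 scores, were among the highest. By group the share was 26.3% ± 6.84 in non-exercised and 23.7% ± 1.69 in exercised ND6 hearts, and 27.8% ± 0.423 and 27.3% ± 2.26 in CO1 hearts (SD, n = 6). Libraries were made from RNA selected by its poly(A) tail, which is short or missing on mitochondrial mRNAs, so the share is not a count of mtDNA copies.

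**Figure D4:**
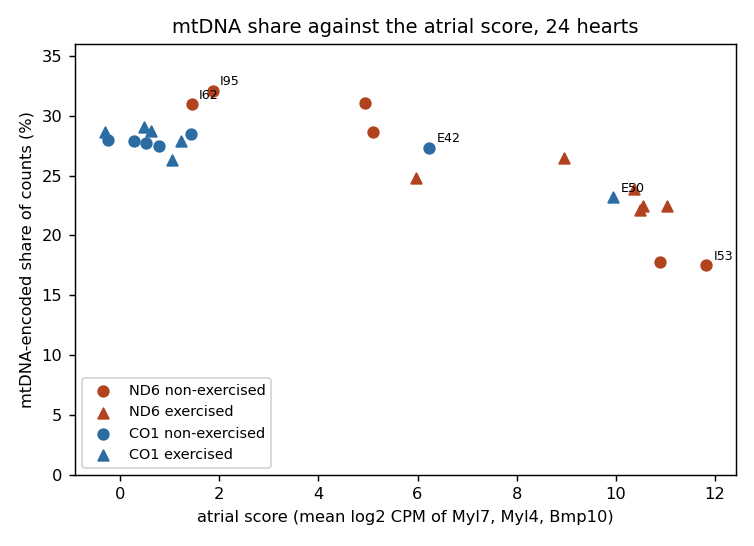
Share of counts from mtDNA-encoded genes (percent) against the atrial score (mean log2 CPM of Myl7, Myl4 and Bmp10) in the 24 hearts, a point per library. ND6 hearts with scores above 10 lie between 17.5% and 23.9%, CO1 mouse E50 lies at 23.2%, and the other CO1 hearts lie at 26.3% or above.

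With the covariate, the single called gene was RP24-458F14.4, a transcript named for its genomic clone and chosen here after its values were seen. It stood at 5.07, 5.74 and 6.70 log2 CPM in ND6 and 4.50, 5.10 and 5.51 in CO1, with 9 of 12 ND6 hearts above every CO1 heart. The log2 difference was 0.76 ± 0.15 (adjusted p = 0.00408) without and 0.94 ± 0.16 (adjusted p = 0.0112) with the covariate. Its slope on the score in the other strains was -0.037 (log2 per unit of score). The call held without each single library (highest adjusted p 0.037) but was lost with a squared score added (adjusted p = 0.235) and with the 24 ND6 and CO1 libraries alone in the fit (adjusted p = 0.323). It was also lost with Adipoq and Hbb-bs added to the score, where 0 genes were called.

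Some other genes kept their size with the covariate without passing edgeR's threshold. Mpp7, a scaffold protein gene of cell junctions, stood at 2.41, 3.25 and 4.41 log2 CPM in ND6 and 2.18, 2.68 and 2.90 in CO1. In 9 of 12 ND6 hearts it exceeded every CO1 heart. Of the ND6 hearts with low scores, I62 stood at 4.29 and I95 at 2.41 log2 CPM. The log2 difference was 1.01 ± 0.18 (adjusted p = 0.00348) without and 1.01 ± 0.21 (adjusted p = 0.0981) with the covariate, and the slope on the score in the other strains was -0.007. DESeq2 and limma voom called it with the covariate (adjusted p = 0.00705 and 0.0175). Gm47283, a Y-linked predicted gene chosen after its values were seen, behaved alike, at 3.71, 4.73 and 5.46 log2 CPM in ND6 and 2.80, 3.65 and 4.66 in CO1 (log2 difference 1.07 ± 0.19, adjusted p = 0.00348, and 1.11 ± 0.22, adjusted p = 0.0955, with the covariate). Its reads may be shared with near-identical copies on the Y chromosome, so its level is uncertain. All 24 libraries expressed the Y-linked gene Ddx3y, at 5.56 to 6.50 log2 CPM in ND6 and 5.93 to 6.50 in CO1.

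Cd163l1, a scavenger receptor gene also chosen after its values were seen, stood at -2.05, 0.19 and 0.72 log2 CPM in ND6 and -2.98, -2.24 and -0.88 in CO1, with 9 of 12 ND6 hearts above every CO1 heart (log2 difference 2.63 ± 0.44, adjusted p = 0.00283, and 2.04 ± 0.47, adjusted p = 0.175, with the covariate). Nmrk2, a kinase gene of NAD synthesis in muscle, did not pass in either fit (0.79 ± 0.38, adjusted p = 0.119, without and 1.65 ± 0.37, adjusted p = 0.175, with the covariate). The mitochondrial ribosomal RNA mt-Rnr2 and the ubiquitin ligase gene Trim37, both chosen after their values were seen, had differences near 0 without the covariate (0.09 and 0.10) and of 0.66 (adjusted p = 0.177) and -0.37 (adjusted p = 0.175) with it. In all, 13 genes were called with the covariate by both DESeq2 and limma voom.

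Among genes lower in ND6, Pdpr, a regulatory subunit of the pyruvate dehydrogenase phosphatase, stood at 4.0, 5.13 and 5.48 log2 CPM in ND6 and 5.33, 6.00 and 6.57 in CO1. In 8 of 12 ND6 hearts it lay below every CO1 heart (log2 difference -0.96 ± 0.20, adjusted p = 0.00643, and -0.48 ± 0.17, adjusted p = 0.396, with the covariate). Amd2, an adenosylmethionine decarboxylase gene, stood at -0.67, 0.06 and 1.03 log2 CPM in ND6, while CO1 hearts fell into 6 at or above 3.11 and 6 at or below 0.81. The upper 6 were 4 non-exercised and 2 exercised mice. Above 3 log2 CPM there were 3 ND5 and 0 ANT1 hearts. The log2 difference was -2.46 ± 0.47 (adjusted p = 0.00408) without and -2.08 ± 0.54 (adjusted p = 0.247) with the covariate. Amd2 is a near-identical copy of Amd1, which stood at 6.96, 7.61 and 7.81 log2 CPM in ND6 and 6.72, 7.55 and 8.19 in CO1, so the split of reads between them is uncertain.

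**Figure D5:**
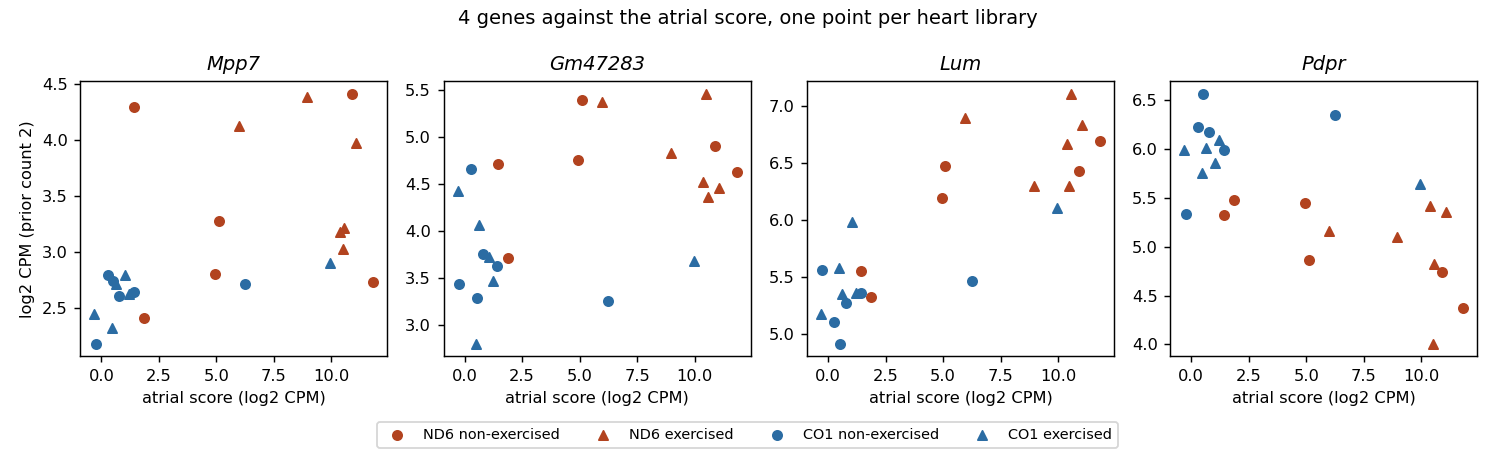
Log2 CPM (prior count 2) of Mpp7, Gm47283, Lum and Pdpr against the atrial score, a point per heart library with strain and arm by colour and shape. Lum is higher and Pdpr lower at high scores. Most hearts with high scores are ND6, so strain and score cannot be told apart in this plot. In the ANT1 and ND5 hearts, not plotted, the slopes of Mpp7 and Gm47283 on the score were -0.007 and 0.002. For Mpp7, 9 of 12 ND6 hearts lie above every CO1 heart, and I95, an ND6 heart with a low score, lies below the CO1 median.

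Within single arms, fewer genes were called than over both arms together. Each arm holds 6 mice per strain against 12 in both, so fewer calls do not show fewer differences. In non-exercised mice 0 of 15723 genes (0%) were called (2164 had an unadjusted p under 0.05, and DESeq2 called 96). In exercised mice 89 were called (0.566%), 82 higher and 7 lower (3929 had an unadjusted p under 0.05, and DESeq2 called 460). Lgi4 (1.27, adjusted p = 0.0345), Mpp7 (1.11, adjusted p = 0.0427) and Lum (1.08, adjusted p = 0.0427) were among those higher in exercised ND6 hearts. The exercised count was 1105 without E50 and 0 without any of 6 other single libraries (I63, E56, E52, E44, E80 and E74). The difference between the arms, tested as an interaction, was called in 0 genes (0%; 168 had an unadjusted p under 0.05, and DESeq2 called 1), so the strain effect was not shown to differ with training. With the covariate, 1 gene was called in non-exercised mice (0.00636%; 632 at an unadjusted p under 0.05), 0 in exercised mice (0%; 837 had an unadjusted p under 0.05, and DESeq2 called 19), and 0 in the interaction (281 had an unadjusted p under 0.05, and DESeq2 called 3). The non-exercised gene was RP24-200D3.4, named for its clone and chosen after its values were seen.

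The same strain contrast in soleus, a slow leg muscle, served as a comparison in libraries that the heart contrast did not use. Of the 24 hearts, 10 came from mice whose code also occurs among the soleus samples. In soleus 0 of 13935 genes were called (0%; 284 had an unadjusted p under 0.05, and DESeq2 called 0). Of the genes called in heart, 0 were called in soleus, among 13555 genes tested in both tissues. Log2 differences in soleus were -0.05 ± 0.20 for Lum, -0.03 ± 0.13 for Mpp7, 0.14 ± 0.21 for Lgi4, -0.51 ± 0.30 for Adipoq and 0.03 ± 0.19 for Pdpr, with adjusted p near 1 for each. RP24-458F14.4 stood at 0.27 ± 0.18 and Gm47283 at 0.33 ± 0.22. The mtDNA-encoded mRNAs had a median difference of 0.19 in soleus, with mt-Nd6 at 0.27 ± 0.08 and mt-Co1 at 0.14 ± 0.10. The ribosomal RNA mt-Rnr2 stood at 0.55 ± 0.13 there. For mt-Nd6, mt-Co1 and mt-Rnr2 the adjusted p in soleus was 0.99984, so none was called. The nuclear complex I subunits had a median of 0.01. The difference between tissues was not tested.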

How the data were processed

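The authors deposited a table of expected counts per gene for heart and one for soleus. The submitters' processing notes name the build mm10, STAR 2.5.2b and RSEM 1.2.28. Whether strand was used is not given, so overlapping and antisense genes are uncertain. Columns were tied to samples by mouse code, 24 columns matched no title and were left out, and the control strain was not analysed here.

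Expected counts were rounded and low genes removed with filterByExpr, leaving 15723 of 53656 genes in heart and 13935 in soleus. After TMM scaling, edgeR 4.0.16 (R 4.3.3) tested differences by its quasi-likelihood method, with all 48 hearts of 4 strains in the fit, a mean per strain and arm, and 40 residual degrees of freedom (39 with the covariate). The contrast averages the arms. Benjamini-Hochberg adjustment ran over all genes, and genes under 0.05 were called. The covariate is the centred mean log2 CPM of Myl7, Myl4 and Bmp10. Levels of single libraries are log2 CPM with a prior count of 2, which puts 0 counts at -3.54, and CPM values are scaled by TMM. Log2 CPM does not correct for gene length, so levels are compared between hearts and not between genes. Library values were tested by exact permutation within arms (853776 arrangements, 3 tests). DESeq2 1.42.0, limma 3.58.1 voom, other scalings and filters, and leaving out each library were alternatives. Scripts were tested on simulated data. Among 60 pairs of libraries within groups 0 were identical, with a smallest chi-square per gene of 6.31, so each counted as a replicate.

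The strains, the 46 gene lists and the covariate were chosen with earlier results of these data known. The rule for named genes takes mt-Nd6, mt-Co1, mt-Nd5, Nnt, Slc25a4, Myl7, Myl4, Bmp10, Sln and Nppa, the 12 called genes of lowest p per direction and fit (with a mean log2 CPM of 1 or more), and per list the 4 members of lowest p, without predicted and clone names. Myl2, Myl3, Irx4, Tnni3, Myh6, Kcna5, Vldlr, Hbb-bs and Amd1, and other genes said to be so, were chosen after their values were seen, as were list members named without a value. Some genes that the rule takes are not reported here.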

Additional observations from a re-analysis of the deposited data

Results flagged for a closer look

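For 26 measures in the 4 groups of 6, the distance of the highest or lowest library from its nearest neighbour was set against the range of the group (Dixon's ratio at its 95% critical value, 104 groups). In 25 cases the library stood apart, where chance gives about 1 in 20 groups, and many of the measures are atrial genes that move together.

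Mouse E50 (CO1, exercised) stood above the rest of its group in the atrial score (9.95), Myl7 (9.05 log2 CPM), Myl4 (10.3 log2 CPM), Bmp10 (10.5 log2 CPM), Nppa (12.6 log2 CPM), Sln (8.38 log2 CPM), Adipoq (4.33 log2 CPM) and Ucp1 (4.37 log2 CPM). It stood below the group in Myl2 (11.4 log2 CPM) and mt-Co1 (16.3 log2 CPM). Mouse E42 (CO1, non-exercised) stood above its group in the score (6.24), Myl7 (4.99 log2 CPM), Myl4 (6.49 log2 CPM), Bmp10 (7.23 log2 CPM), Sln (4.71 log2 CPM) and Adipoq (-0.22 log2 CPM). Mouse I53 (ND6, non-exercised) stood below its group in Myl2 (3.53 log2 CPM) and Irx4 (-3.54 log2 CPM, 0 counts). Mouse I63 (ND6, exercised) stood below its group in Myl4 (7.88 log2 CPM), Nppa (8.78 log2 CPM) and Sln (5.72 log2 CPM).

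Shox2 was highest in E52 among exercised CO1 hearts (-0.46 log2 CPM) and lowest in I50 among exercised ND6 hearts (-1.23 log2 CPM). Gm47283 was highest in E55 (4.66 log2 CPM) and Mpp7 lowest in E75 (2.18 log2 CPM), both non-exercised CO1 hearts.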

How the results depend on the processing

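The count of genes called over both arms, 2681, was 3378 with DESeq2, 2617 with other size factors, 2737 when scaled without mtDNA genes, 6547 with limma voom and quality weights, 1782 without a filter on low counts and 5220 with the 24 ND6 and CO1 libraries alone. It was 0 with Adipoq and Hbb-bs as covariates and 3575 without E42 and E50, both chosen after seeing the data. The genes called by DESeq2 included 2662 of the 2681 (99.3%), and those called by limma voom 2594 (96.8%). No scaling moved the median of all genes by more than 0.03. Of the called genes 68.1% were higher with DESeq2, 56.4% with limma voom, 73.1% with other size factors, 67.4% when scaled without mtDNA genes and 61.2% with the 24 libraries alone.

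With the atrial covariate, the count of 1 was 21 with DESeq2, 61 with limma voom, 0 with the 24 libraries alone, 0 with a squared score added, 0 with Adipoq and Hbb-bs added and 3 without E42 and E50. Within arms, DESeq2 called 96 genes in non-exercised mice, 460 in exercised mice and 1 in the interaction, and 12, 19 and 3 with the covariate. The 24 libraries alone gave 1 and 2413 genes in the non-exercised and exercised arms, and 0 in non-exercised mice with the covariate. Leaving out single libraries gave 1159 to 3786 genes over both arms, 0 to 27 in non-exercised and 0 to 1105 in exercised mice, and, with the covariate, 1 to 3 over both arms and 0 to 10 in non-exercised mice. The difference in mtDNA share ranged from -3.13 to -1.67 percentage points, with 1 of 24 exact permutation p-values under 0.05 (0.0448, without I95), and that in the atrial score from 5.37 to 6.73 (largest p 0.00101). The cause of these changes was not tested.

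With Adipoq and Hbb-bs as covariates 6 of 55 named genes changed sign, to 0.021 (Idh2), 0.20 (Myl2), 0.0095 (Nnt), 0.17 (Slc25a4), 0.22 (mt-Co1) and 0.40 (mt-Nd6). Of these Idh2 also lost its call, and the others had none. Another 47 kept their sign and lost their call, and the remaining 2 had no call in either fit. No named gene kept a call, since 0 genes were called in this fit. DESeq2 left the side of the threshold of 56 of 57 named genes as it was without the covariate, and called 8 of 16 more with it. No paired analysis was possible because the mouse codes do not pair ND6 with CO1 mice. With hearts of at least 32 CPM of Myl7 left out, 0 genes were called in non-exercised mice. That fit set only 2 ND6 hearts, I62 and I95, against all 6 non-exercised CO1 hearts, with E42 kept at 31.7 CPM. With so few ND6 hearts it can miss differences. No fit over both arms could be made because no exercised ND6 heart lies below 32 CPM. Depth, at 19.7 M counts or more, limits genes near 0 counts, such as Ucp1, Vsnl1 and Pvalb, whose log2 differences rest on few counts in CO1 hearts.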

Other observations

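Lists outside the groups above held few calls, where 13% of all genes rose and 4.02% fell. Of 12 endothelial markers 2 rose (Vwf, Emcn) and 2 fell (Cdh5, Esam), and of 12 markers of smooth muscle and pericytes 1 rose (Cnn1) and 2 fell (Kcnj8, Abcc9), with medians of -0.17 and 0.09. Of 20 genes of endoplasmic reticulum chaperones and the unfolded protein response 4 rose (Pdia3, Pdia4, Manf and Xbp1, median 0.15, and 0.13 with the covariate). Of 29 antioxidant genes 2 rose (Gpx1, Gpx3), of 28 interferon-stimulated genes 2 rose (Isg15, Ifi27l2a) and 1 fell (Xaf1), and of 15 hypoxia-responsive genes 1 rose (Car9) and 2 fell (Bnip3, Kdm3a).

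Of 23 genes of glycolysis and glucose uptake 1 fell (Pfkfb2, median -0.23), of 13 carriers of adenine nucleotides and phosphate 2 rose (Slc25a23, Ckb), and of 21 heat shock and immediate early genes 1 rose (Nr4a3). Of 19 clock genes 0 were called by edgeR, with 10 positive differences without and 1 with the covariate (medians 0.01 and -0.13). Of 13 glucocorticoid-responsive genes and 25 proliferation genes 0 were called. Of 16 haemodynamic stress and fetal genes 3 rose (Nppa, Fhl1, Ctgf), and the median went from -0.03 to 0.51 with the covariate, the list whose median moved furthest above 0. Of 5 sex-linked genes 1 fell (Kdm5d).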
